A study of Sus scrofa with 23 samples.

Results

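The genes described are 10 genes of FoxO, insulin and insulin-like growth factor (IGF) signalling, out of 26687 genes to which the deposited transcript values were summed. They were chosen by symbol: IGF1, INSR, IGF1R, IRS2, FOXO1, FOXO3, KLHL24, CCNG2, PDK4 and TXNIP. KLHL24, a target of FoxO factors, was selected on its higher values in the libraries labelled CF, so its comparisons with that label are given as a description with no test. All 10 genes passed the filter on low counts, which kept 20921 genes.

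Insulin and IGFs bind receptor tyrosine kinases on the cell surface, and adaptors such as IRS2 pass the signal to phosphoinositide 3-kinase (PI3K) and the kinase AKT. Active AKT phosphorylates FoxO transcription factors and keeps them out of the nucleus, whereas weak signalling lets them enter it and switch on genes of cell cycle exit, stress resistance, autophagy and fuel use. In the kidney, insulin is known to act on podocytes and on tubule cells, where it restrains glucose production in the proximal tubule and promotes sodium reabsorption.

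Total RNA of kidney cortex was sequenced after removal of ribosomal RNA in newborn pigs born to matings of CFTR+/- pigs. The labels give 11 pigs as CFTR-/- (CF), 6 as CFTR+/- (HET) and 6 as wild type (WT), each pig with its own library, and the study compared CF with non-CF, which joins the 12 WT and HET libraries. The labels give neither sex nor litter. Depth ran from 32901281 to 52952273 estimated counts per library, and its medians were 43636298 (CF), 47476461 (HET) and 42709608 (WT).

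CFTR, the targeted gene, was checked in every library. Its lowest, median and highest normalised CPM values (library-scaled counts) were 1.27, 2.24 and 3.67 for the label WT, 9.41, 12.1 and 17.5 for HET, and 12.5, 20.7 and 23.5 for CF. CFTR RNA was thus higher, not lower, where the labels give a disrupted allele, and the groups are called by their labels throughout.

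Kidney cortex markers were high in TPM, a scale that divides counts by transcript length. The 8 proximal tubule markers summed to between 1650 and 3140 TPM, the 5 podocyte markers to between 189 and 401 TPM, and the 5 collecting duct markers to between 160 and 267 TPM with ATP6V1B1 leading. Among markers of other tissues, CYP17A1 of the adrenal cortex, ACTA1 of skeletal muscle and the lymphocyte genes CD3E and MS4A1 were near 0. Their lists were not empty: adrenal cortex markers (CYP11A1 leading) summed to between 2.74 and 5.90 TPM, skeletal muscle (CKM) to between 2.75 and 4.95 TPM, immune (CD163) to between 15.1 and 44.4 TPM, and hepatocyte markers, nearly all APOA1, to between 63.9 and 191 TPM. The 5 markers of the distal tubule and the loop of Henle summed to 422, 558 and 638 TPM (lowest, median and highest) in CF libraries against 457, 745 and 1120 TPM in non-CF libraries. The most abundant, UMOD, went the other way, with a median of 203 TPM in CF and 180 TPM in non-CF, and 4 of the 5 had a negative log2 fold change. In a bulk sample, fewer cells of a type and less RNA per cell cannot be told apart, and the part of these markers in the values that follow was not tested.

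Libraries of pigs 1 to 6 and 12 to 18 (the lower number range, n = 13) stood apart from those of pigs 7 to 11 and 19 to 23 (the higher number range, n = 10) across many genes. These ranges separate on the lesser of the leading scaling axes (10.6% of variance). The larger (17.2%) splits the libraries another way, with the Y-linked gene EIF1AY between 15.1 and 26.0 CPM in the 13 libraries on its positive side (6 of 11 CF, 5 of 6 HET and 2 of 6 WT) and at most 0.0961 CPM in the other 10. HET and WT were thus uneven in EIF1AY, whose part in the pairwise comparisons of genotypes was not tested. The labels name no batch, each genotype occurs in both ranges, and values are also given within each range. The immediate early gene FOS reached 417 CPM in CF pig 1, 155 CPM in WT pig 12 and 61.8 CPM in HET pig 20, whereas the other 20 libraries held between 2.23 and 6.41 CPM.

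Per length, TXNIP was the most abundant of the 10 genes, with a lowest, median and highest level of 94.5, 198 and 334 TPM over the 23 libraries. IGF1R followed with 64.8, 88.1 and 121 TPM and PDK4 with 27.0, 50.9 and 81.0 TPM. IGF1 had the lowest level, 0.67, 1.27 and 2.59 TPM. In between came INSR (median 38.7 TPM), KLHL24 (27.2 TPM), FOXO3 (22.4 TPM), FOXO1 (13.4 TPM), CCNG2 (11.3 TPM) and IRS2 (7.43 TPM). The order of neighbours held in every library for IGF1R over PDK4, FOXO3 over FOXO1, CCNG2 over IRS2 and IRS2 over IGF1. The neighbours that changed places most were PDK4 and INSR, with PDK4 higher in 17 of 23 libraries, KLHL24 and FOXO3 (18 of 23), and FOXO1 and CCNG2 (18 of 23).

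The comparison of CF with non-CF asked which kidney genes differ with the loss of CFTR. Of the 9 genes other than KLHL24, FOXO1 rose in CF and passed the quasi-likelihood test of edgeR at a p under 0.05 after Benjamini-Hochberg adjustment over all genes. That is 1 of 9, where 0.349% of all 20921 genes passed (51 higher and 22 lower; with upper-quartile normalization, 48 and 53). At an unadjusted p under 0.05, 5 of these 9 genes were higher in CF and none lower, namely FOXO1, INSR, FOXO3, TXNIP and CCNG2, against 7.35% of all genes that were higher at that limit. Only PDK4 had a negative log2 fold change. Where groups are said below not to overlap, the share of all genes that did the same was not counted. In the higher number range alone edgeR called 473 of 20882 genes for CF against non-CF, and 3635 had an unadjusted p under 0.05. The plot of the 10 genes by genotype shows each library.

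**Figure D1:**
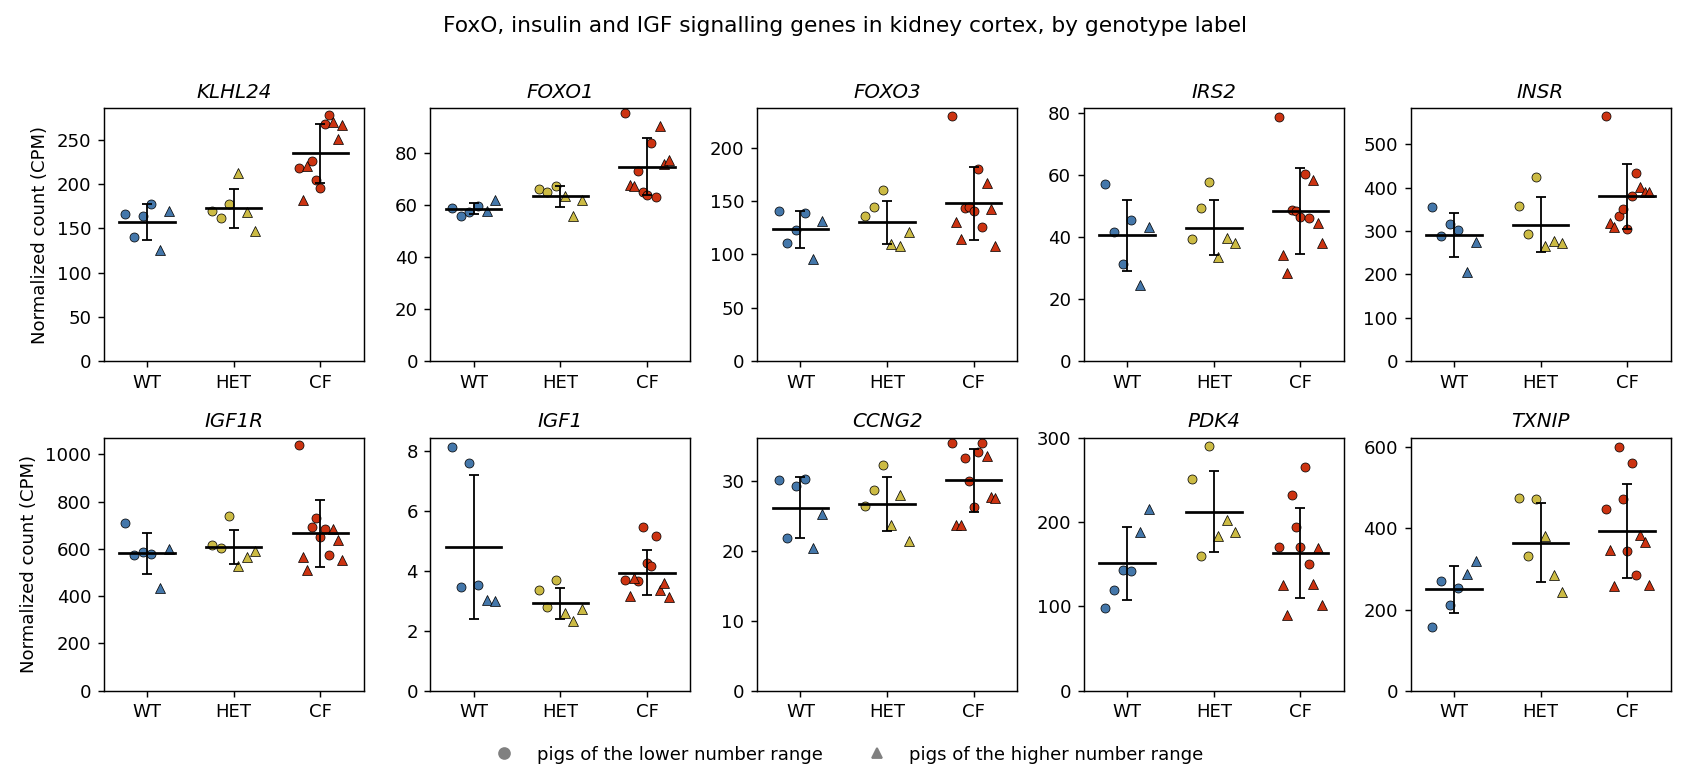
Normalised CPM (vertical axis, from 0) of the 10 genes in each library, by genotype label on the horizontal axis, with circles for pigs of the lower number range and triangles for those of the higher; bars give mean and SD (n = 6 WT, 6 HET and 11 CF). On this scale all 11 CF libraries lie above the highest WT library for KLHL24 (177 CPM) and FOXO1 (62.0 CPM).

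IGF1, a ligand made chiefly by the liver and locally in many tissues, was barely expressed. The lowest, median and highest levels of IGF1 were 2.99, 3.50 and 8.15 CPM in WT, 2.31, 2.77 and 3.70 in HET and 3.13, 3.69 and 5.45 in CF. WT pigs alone held values above the highest CF library, and those 2 pigs were in the lower number range, so the groups overlapped there. Within the higher range all 5 CF libraries lay above all 5 non-CF libraries, a separation not counted over all genes. IGF1 had a log2 fold change of 0.03 for CF against non-CF (adjusted p = 0.97 by edgeR, SE 0.19), with -0.08 in the lower range and 0.32 in the higher. For HET against WT it was -0.72 (unadjusted p = 0.00431 and adjusted p = 0.526 by edgeR, SE 0.228). WT pigs 12 (8.15 CPM) and 17 (7.61 CPM) stood far above the other WT pigs. Those others (2.99 to 3.53 CPM) lay within the HET values. Pigs 12 and 17 also had the highest stroma and smooth muscle marker sums of all libraries (990 and 1210 TPM). Their adipocyte markers summed to 8.59 and 60.5 TPM. The part of these markers in the IGF1 values was not tested.

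The other listed ligand genes were IGF2, the fetal growth factor, and INS, which encodes insulin. IGF2 averaged 1240 CPM in WT, 1100 in HET and 1050 in CF, a log2 fold change of -0.16 for CF against non-CF (edgeR's adjusted p = 0.779). INS averaged 0.297, 0.305 and 0.334 CPM in WT, HET and CF.

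INSR encodes the insulin receptor (gene 396755, chr2:71797209-71939923 of Sscrofa11.1, plus strand). Its lowest, median and highest levels were 205, 296 and 356 CPM in WT, 266, 285 and 424 in HET and 304, 381 and 565 in CF. Each of the 11 CF libraries lay above the non-CF median of 291 CPM, but 2 alone exceeded the highest non-CF library. Among the pigs of the higher number range the groups did not overlap, with CF from 309 to 401 CPM and non-CF from 205 to 276 CPM. How many of all genes do so there was not counted. INSR had a log2 fold change of 0.33 (unadjusted p = 0.00448 by edgeR, SE 0.105), and its adjusted p of 0.139 did not pass. The alternatives to this fit of all libraries gave 0.0314 to 0.623, the ends being the fits of the higher and of the lower range alone, with log2 fold changes of 0.49 and 0.24. The difference between the ranges did not pass a test (edgeR's p = 0.216, adjusted p = 0.707).

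The annotation lists 4 INSR transcripts, of which 2 hold a 36-base exon, number 11 of 22, and 2 lack it. In mammals the receptor made with this exon is known to prefer insulin, and the receptor made without it also binds IGF2 well. The exon lies at chr2:71904820-71904855 of Sscrofa11.1 on the plus strand and is shown, from RefSeq's annotation and the genome of that build, because transcripts with it differed more between the labels than those without it. Capitals mark the exon and lower case 20 bases of intron on each side.
INSR exon 11: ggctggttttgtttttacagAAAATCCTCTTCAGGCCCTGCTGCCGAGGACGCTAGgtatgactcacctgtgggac

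Transcripts with the exon made up 38.1%, 49.9% and 60.2% of INSR TPM in WT (lowest, median and highest), 46.6%, 52.6% and 57.4% in HET and 50%, 58.2% and 66.1% in CF. Of the CF libraries, 10 of 11 lay above the non-CF median of 51.3% and 4 above the highest non-CF library, so the groups overlapped. The mean share was 58.4% ± 4.99 (SD, n = 11) in CF and 51.3% ± 5.99 (SD, n = 12) in non-CF, a difference of 7.17 percentage points, with 7.39 in the lower number range and 6.91 in the higher. INSR transcripts with the exon reached 17.6, 24.3 and 35.1 TPM in CF against 14.5, 16.2 and 24.2 TPM in non-CF (lowest, median and highest). Those without it reached 12.7, 16.6 and 26.5 TPM against 10.8, 16.2 and 24.0 TPM. The ratio of CF to non-CF means was 1.41 with the exon and 1.06 without it. This share was singled out after the values were seen and was not tested, and it rests on how kallisto divides reads between transcripts that share most of their sequence.

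**Figure D2:**
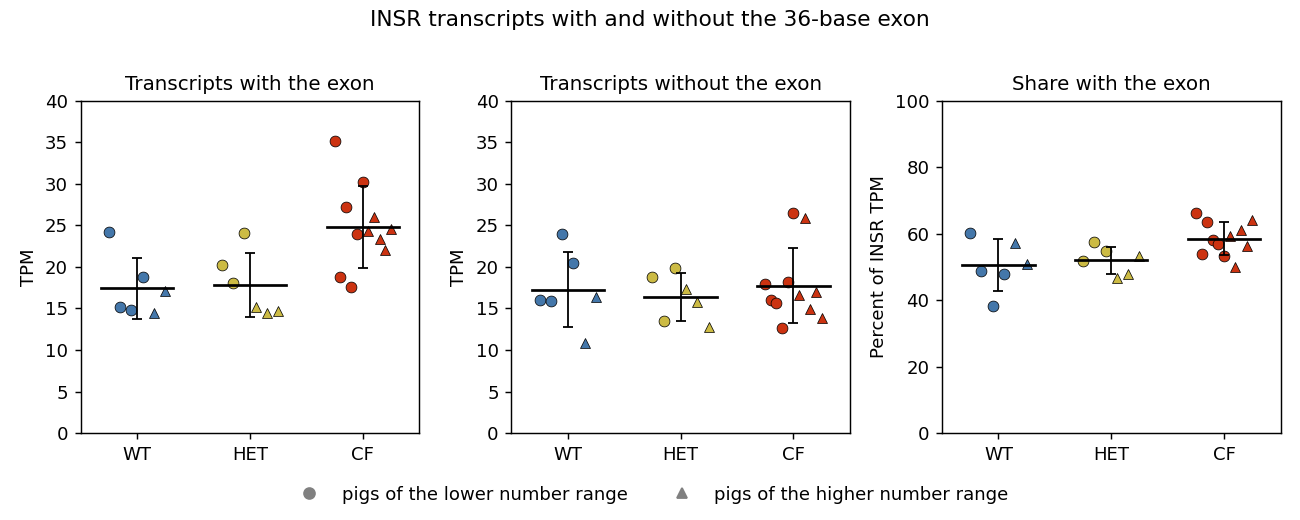
INSR transcripts with the 36-base exon, without it (TPM on the vertical axes) and the share with it (percent of INSR TPM), by genotype label on the horizontal axis; each point is a library, circles for the lower pig-number range and triangles for the higher, and bars give mean and SD. The share averaged 58.4% in CF and 51.3% in non-CF.

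IGF1R, the receptor for IGFs (gene 397350, chr1:137383623-137691038, minus strand), had 435 to 741 CPM in non-CF and 510 to 1040 CPM in CF, with CF pig 1 the highest. IRS2, the adaptor that couples both receptors to PI3K (gene 110255858, chr11:76626158-76654639, minus strand), had 24.4 to 57.9 CPM in non-CF and 28.4 to 78.8 CPM in CF, again with CF pig 1 the highest. Neither gene passed the test, with a log2 fold change of 0.16 for IGF1R (adjusted p = 0.489 by edgeR, SE 0.0975, 7 of 11 CF libraries above the non-CF median) and 0.21 for IRS2 (SE 0.145, adjusted p = 0.557, 8 of 11). Without CF pig 1 the values were 0.08 for IGF1R and 0.12 for IRS2.

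FOXO1 is a transcription factor that AKT keeps out of the nucleus (gene 397077, chr11:15317222-15410059 of Sscrofa11.1, minus strand). Its lowest, median and highest levels were 56.0, 58.4 and 62.0 CPM in WT, 56.0, 64.5 and 67.3 in HET and 63.3, 73.4 and 95.4 in CF. All 11 CF libraries lay above all 6 WT libraries, while 3 of them fell within the HET values. In TPM the separation from WT was lost, with FOXO1 at 11.2 to 17.7 TPM in CF and 10.6 to 13.8 TPM in WT. In the higher number range all 5 CF libraries lay above all 5 non-CF libraries, and the share of all genes that do so was not counted. FOXO1 rose with a log2 fold change of 0.30 (adjusted p = 0.0481 by edgeR, SE 0.0669, above the non-CF median in 11 of 11), with 0.27 in the lower range and 0.34 in the higher. A position above that median in all 11 CF libraries held for FOXO1 and INSR, 2 of the 9 genes other than KLHL24, and for 1.54% of all genes.

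The call of FOXO1 lay close to the limit: its adjusted p ran from 0.00606 with DESeq2 to 0.382 in the lower number range alone, and was 0.0662 in the higher range alone, 0.0519 without the filter on low counts, 0.0524 with the Y-linked gene EIF1AY as a covariate, 0.0572 by an exact Mann-Whitney test and 0.0766 without the libraries CF pig 1 and WT pig 12. Leaving out 1 library ended the call in 14 of 23 cases, for CF pigs 1 (0.0573), 5 (0.0704), 7 (0.099), 8 (0.0791) and 9 (0.0678), WT pigs 12 (0.0713), 16 (0.0822), 17 (0.0865), 18 (0.0811), 22 (0.0673) and 23 (0.0629) and HET pigs 14 (0.0677), 20 (0.0802) and 21 (0.0837), while the FOXO1 log2 fold change stayed between 0.26 and 0.32.

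FOXO3, a factor of the same family (gene 733621, chr1:74626673-74760323 of Sscrofa11.1, plus strand), had 95.2 to 160 CPM in non-CF and 108 to 230 CPM in CF, with CF pig 1 the highest. It had a log2 fold change of 0.22 (unadjusted p = 0.0439 and adjusted p = 0.349 by edgeR, SE 0.105), higher than the non-CF median in 8 of 11, and of 0.14 without CF pig 1 (adjusted p = 0.487, and 0.21 to 0.602 over the alternatives). The most abundant of its 4 annotated transcripts made up 48.3%, 62.8% and 82.0% of FOXO3 TPM in CF (lowest, median and highest) and 25.7%, 50.5% and 68.5% in non-CF, which was seen after the fact and not tested. Of the other FoxO factors, FOXO4 had a log2 fold change of 0.27 (edgeR's adjusted p = 0.31, 10 of 11 CF libraries above the non-CF median). FOXO6, whose RNA was close to absent, averaged 0.268, 0.329 and 0.269 CPM in WT, HET and CF.

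KLHL24 encodes a substrate adaptor of CUL3 ubiquitin ligases (gene 100513048, chr13:121564833-121608146 of Sscrofa11.1, plus strand). Lowest, median and highest levels of KLHL24 were 125, 165 and 177 CPM in WT, 147, 169 and 213 in HET and 182, 226 and 278 in CF. All 11 CF libraries exceeded all WT libraries, and HET pig 19, at 213 CPM, was the single non-CF library inside the CF values. In TPM the groups overlapped more, with 25.7 to 47.7 TPM in CF and 19.7 to 30.3 TPM in WT for KLHL24. KLHL24 averaged 157 ± 20 CPM (SD, n = 6) in WT, 173 ± 22 (SD, n = 6) in HET and 235 ± 33.6 (SD, n = 11) in CF. The log2 fold change of CF against non-CF was 0.51, with 0.49 and 0.54 in the lower and higher number ranges. In the lower range the groups did not overlap. The most abundant of the 14 annotated KLHL24 transcripts made up a median of 25% of its TPM in CF and 26.0% in non-CF. For HET against WT, a contrast that did not enter the selection, the log2 fold change was 0.14 (unadjusted p = 0.228 and adjusted p = 0.779 by edgeR, SE 0.112).

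CCNG2, an unconventional cyclin that FoxO factors induce and that is tied to cell cycle exit (gene 100523979, chr8:72790394-72800553, plus strand), had 20.4 to 32.4 CPM in non-CF and 23.8 to 35.5 CPM in CF. Its log2 fold change of 0.19 did not pass (unadjusted p = 0.0473 and adjusted p = 0.358 by edgeR, SE 0.0887, 8 of 11 CF libraries above the non-CF median).

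TXNIP binds thioredoxin and restrains glucose uptake (gene 733688, chr4:99348589-99351760 of Sscrofa11.1, plus strand). TXNIP reached 157, 263 and 319 CPM in WT (lowest, median and highest), 243, 356 and 476 in HET and 258, 367 and 601 in CF. In the lower number range the 4 WT pigs (157 to 271 CPM) lay below every HET (331 to 476 CPM) and CF library (285 to 601 CPM), whereas in the higher range the WT pigs (288 and 319 CPM) lay among the HET and CF values. TXNIP had a log2 fold change of 0.36 for CF against non-CF (unadjusted p = 0.0453 and adjusted p = 0.353 by edgeR, SE 0.169), with 0.55 in the lower number range and 0.10 in the higher. Against WT alone it was 0.65 for CF (adjusted p = 0.106 by edgeR, SE 0.191, and 0.0222 to 0.231 over the alternatives, under 0.05 with DESeq2) and 0.55 for HET (SE 0.212, adjusted p = 0.567).

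PDK4 encodes a kinase that switches off pyruvate dehydrogenase and so spares glucose during fasting (gene 100286778, chr9:75246956-75260134 of Sscrofa11.1, minus strand). Its lowest, median and highest levels were 98.7, 143 and 216 CPM in WT, 160, 195 and 290 in HET and 89.7, 169 and 265 in CF. The ranges of pig number differed. In the lower range all 6 CF libraries (150 to 265 CPM) lay above the non-CF median of 143 CPM. In the higher range all 5 CF libraries (89.7 to 169 CPM) lay below all 5 non-CF libraries (184 to 216 CPM), again without a count over all genes. PDK4 had a log2 fold change of -0.16 over all libraries (adjusted p = 0.754 by edgeR, SE 0.174), 0.20 in the lower range and -0.67 in the higher. The alternatives to the fit of all libraries gave an adjusted p of 0.0236 (the higher range alone) to 0.899 (without HET pig 15). The difference between the ranges was -0.87 (edgeR's unadjusted p = 0.00852, adjusted p = 0.301), so none of the 9 genes other than KLHL24 passed that test, and 0.0191% of all genes passed. PDK4 alone of the 9 had an unadjusted p under 0.05 in it, as did 10.1% of all genes.

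The 3 genotype labels were also compared pairwise in a fit of all 23 libraries, in which CF against WT and CF against HET share the CF libraries, and HET against WT shares both controls. For CF against WT, 0.349% of all genes passed edgeR's test and none of the 9 genes did, although FOXO1, INSR and TXNIP had an unadjusted p under 0.05 (14.1% of all genes) and DESeq2 called FOXO1 and TXNIP and 576 of all genes. FOXO1 came closest, with a log2 fold change of 0.35 (adjusted p = 0.0552 by edgeR, SE 0.0817, and 0.00539 to 0.119 over the alternatives, with all 11 CF libraries above the WT values). It passed with DESeq2 (0.00539), with median-of-ratios (0.0495) and upper-quartile normalization (0.0375), with the number range as a term (0.0412) and on leaving out CF pig 3 (0.049), 4 (0.0286), 6 (0.0315), 10 (0.0484) or 11 (0.0428) or WT pig 23 (0.0413). For CF against HET, edgeR called 0 of the 9 genes and 0.0% of all genes, 3 of the 9 (FOXO1, INSR and IGF1) had an unadjusted p under 0.05 (9.89% of all genes), and DESeq2 called none of the 9 and 65 of all genes. For HET against WT, 0 of the 10 genes passed edgeR's test, as did 0.00478% of all genes, IGF1, PDK4 and TXNIP had an unadjusted p under 0.05 (7.99% of all genes), and DESeq2 called none of the 9 and 33 of all genes. PDK4 had a log2 fold change of 0.49 for HET against WT (adjusted p = 0.622 by edgeR, SE 0.225) and -0.38 for CF against HET (SE 0.195, adjusted p = 0.526).

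Between the ranges of pig number, 9 of the 10 genes had a negative log2 fold change for higher against lower. IRS2 (-0.39, SE 0.127, edgeR's adjusted p = 0.0465), IGF1 (-0.57, SE 0.161, adjusted p = 0.0255) and CCNG2 (-0.25, SE 0.0757, adjusted p = 0.0353) passed, 3 of 10 genes where 10.3% of all genes did, and each lay below the median of the lower range in 9 of the 10 libraries of the higher. FOXO1 (-0.00) and KLHL24 (0.02) differed least between the ranges.

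Within genotypes, KLHL24 was related to each of the other 9 genes over the 23 libraries by log2 CPM after subtraction of the mean of each genotype label. By Pearson's r, CCNG2 was the 1 gene of 9 whose relation passed, at 0.561 (permutation p = 0.00551, adjusted over the 9 relations 0.0496). Its Spearman's rho of 0.510 did not pass (permutation p = 0.0132, adjusted 0.0781). Without the libraries farthest from the median of KLHL24, CF pig 10 and HET pig 19, r was 0.621. Within the lower number range r was 0.726 (n = 13), and within the higher 0.680 (n = 10). Where the number range was subtracted as well, r was 0.703 (permutation p adjusted 0.00162). The share of all genes with r to KLHL24 as high as that of CCNG2 was not counted. With genotype means alone subtracted, BRD8 (0.819), MBTD1 (0.817) and TCP11L2 (0.779) lay closer to KLHL24, the nearest among 18124 genes.

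INSR came next, with r of 0.426 to KLHL24 (permutation p = 0.0425, adjusted 0.191) and rho of 0.494 (permutation p = 0.0174, adjusted 0.0781), 0.506 without those libraries, 0.373 in the lower range and 0.684 in the higher. FOXO1 had r of 0.346 (permutation p = 0.106, adjusted 0.317) and rho of 0.407 (permutation p = 0.0543, adjusted 0.163), 0.321 without those libraries, 0.152 in the lower range and 0.591 in the higher. On log2 TPM both passed, with r of 0.542 for INSR (permutation p adjusted 0.0239) and 0.638 for FOXO1 (adjusted 0.00468). With the number range subtracted as well, both passed by rho, 0.541 for INSR and 0.516 for FOXO1 (permutation p adjusted 0.0371 for each), but not by r, 0.479 (adjusted 0.0907) and 0.387 (adjusted 0.2). The other 6 genes had r between -0.007 for PDK4 and 0.285 for IRS2. Among the genes compared here, KLHL24 thus varied within genotypes most with CCNG2 and hardly at all with PDK4 or TXNIP (r of -0.005). Whether its relation with CCNG2 is closer than that with most other genes was not tested.

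As a description without p, some of the 10 genes ran together over the 23 libraries after subtraction of genotype means. FOXO1, KLHL24 and IGF1 stood more apart. Their highest r to another of the 10 genes was 0.69 (FOXO1 to FOXO3), 0.561 (KLHL24 to CCNG2) and 0.472 (IGF1 to CCNG2). FOXO3 ran with IGF1R (r of 0.898) and IRS2 (0.875), IRS2 with IGF1R (0.885) and CCNG2 (0.758), and INSR with IGF1R (0.761), CCNG2 (0.740) and IRS2 (0.738). CF pig 1 held the highest and WT pig 22 the lowest CPM of the 23 libraries for FOXO3, IRS2, INSR and IGF1R. These r were not taken without those libraries, and the share of all gene pairs with r as high was not counted. With the number range subtracted as well, r of FOXO1 with FOXO3 was 0.814. That of INSR with CCNG2 was then 0.661 and that of IRS2 with CCNG2 0.631. PDK4 and TXNIP formed a pair of their own (0.825, and 0.752 with the number range subtracted as well), and among 18124 genes each was the other's nearest by r. With the range subtracted this was lost, PDK4 then being nearest to GRAMD1B (0.763) and TXNIP to CLDN2 (0.794).

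Genes whose values most resembled those of KLHL24 were BRD8 (r of 0.819), MBTD1 (0.817) and TCP11L2 (0.779). For FOXO1 they were TLE3 (0.913), ATXN1L (0.855) and ZFAND3 (0.839), for FOXO3 SERINC5 (0.926), SNX33 (0.915) and ASXL1 (0.903), and for INSR ZNF704 (0.907), HDAC5 (0.899) and PDK2 (0.888). IRS2 was nearest to TBC1D17 (0.947), PNRC1 (0.938) and SNX33 (0.912), CCNG2 to PNRC1 (0.885), HECA (0.848) and KLF3 (0.846), and IGF1R to FOXJ2 (0.922), SEMA4B (0.913) and TOB2 (0.910). IGF1 was nearest to MYO3A (0.877), PI15 (0.843) and GPR182 (0.797). After PDK4, TXNIP had FAM120B (0.812) and CFLAR (0.793), and after TXNIP, PDK4 had SLC25A28 (0.798) and CCDC126 (0.797). These r are descriptions over 23 libraries, picked as the highest of 18124.

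Lists for the rest of the pathway, drawn up with earlier results of these data known, held 203 genes, of which 192 passed the filter: 154 of this signalling and 38 of adjacent responses (glucocorticoids, fasting, immediate early genes and hypoxia). For CF against non-CF, 2 of 192 (1.04%, against 0.349% of all genes) rose and none fell by edgeR's test, GADD45B and SESN2, both listed FoxO targets. At an unadjusted p under 0.05 stood 20.8% of the 154 signalling genes and 34.2% of the 38 others, 23.4% together, against 13.7% of all genes. The FoxO target list held 34 genes, of which 30 passed the filter. Of these, 25 had a positive log2 fold change (83.3%, against 49.6% of all genes), 12 were higher and 1, SOD2, lower at an unadjusted p under 0.05, and the median log2 fold change was 0.18 against -0.00 over all genes. The pairwise comparisons, which share libraries with this one and with each other, had 27 positive and a median of 0.25 (CF against WT, 49.6% of all genes positive), 22 and 0.13 (CF against HET, 51.2%), and 25 and 0.16 (HET against WT, 48.6%). Higher at an unadjusted p under 0.05 were 13, 7 and 4 of the 30, against 1593, 1160 and 860 of all 20921 genes, and the difference between these tallies was not tested.

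GADD45B, a gene induced by growth arrest and DNA damage, had 12.3, 14.9 and 20.2 CPM in WT (lowest, median and highest), 12.8, 20.4 and 27.1 in HET and 18.8, 35.6 and 91.3 in CF. CF pigs 7 (91.3 CPM) and 9 (70.2 CPM) stood highest, and 6 of 11 CF libraries exceeded every non-CF library. GADD45B rose with a log2 fold change of 1.19 (adjusted p = 0.0197 by edgeR, SE 0.227, above the non-CF median in 11 of 11), with 0.52 in the lower number range and 1.82 in the higher, a difference that did not pass (edgeR's unadjusted p = 0.00123, adjusted p = 0.174). The call was lost in the lower range alone (adjusted p = 0.468), without HET pig 21 (0.0506) and by the exact Mann-Whitney test (0.0825), within a span of 0.000766 to 0.468 over all alternatives.

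SESN2, a stress-induced protein that restrains mTOR, had 27.7, 30.8 and 33.6 CPM in WT (lowest, median and highest), 29.7, 32.3 and 42.6 in HET and 27.2, 59.0 and 131 in CF. The CF libraries split, with 8 above every non-CF library, CF pigs 3 and 4 (31.1 and 29.9 CPM) among the non-CF values and CF pig 2 (27.2 CPM) below them. SESN2 rose with a log2 fold change of 0.94 (adjusted p = 0.0415 by edgeR, SE 0.201, above the non-CF median in 8 of 11), with 0.32 in the lower range and 1.52 in the higher, a difference that did not pass (edgeR's unadjusted p = 4.98e-04, adjusted p = 0.14). The call was lost by the exact Mann-Whitney test (0.267), with EIF1AY as a covariate (0.0524), in the lower range alone (0.658) and without CF pig 1 and WT pig 12 (0.062), over a span of 0.00239 to 0.658, and without any of CF pigs 6 (0.0583), 7 (0.0858), 8 (0.0593), 9 (0.0668) and 11 (0.0569), WT pigs 12 (0.0602), 16 (0.0671), 17 (0.0665), 18 (0.0675), 22 (0.0624) and 23 (0.0518) or HET pigs 14 (0.0557), 20 (0.0646) and 21 (0.0763).

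Among the other FoxO targets, SESN1, a paralogue of SESN2, had a log2 fold change of 0.30 (edgeR's adjusted p = 0.0567) and lay above the non-CF median in 11 of 11 CF libraries. It passed with DESeq2 (0.00987), with the number range as a term (0.049) and without CF pig 4 (0.038), HET pig 15 (0.0452) or WT pig 23 (0.0422), over a span of 0.00987 to 0.333. BCL2L11, which promotes apoptosis, had 0.29 (adjusted p = 0.118), the autophagy gene ATG14 0.19 (0.123), and CDKN1B, an inhibitor of cyclin-dependent kinases, 0.28 (0.124). SOD2, the mitochondrial superoxide dismutase, had -0.26 (edgeR's adjusted p = 0.274) and lay below the non-CF median in all CF libraries, as did 1.59% of all genes. SOD2 had -0.05 in the lower number range and -0.50 in the higher (edgeR's adjusted p = 0.019 there). The difference between the ranges did not pass (edgeR's unadjusted p = 0.0169, adjusted p = 0.364). The glucose production genes PCK1 (0.54, edgeR's adjusted p = 0.541) and G6PC (0.16, adjusted p = 0.73), which were on the list but are named here only after their values were seen, did not pass.

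**Figure D3:**
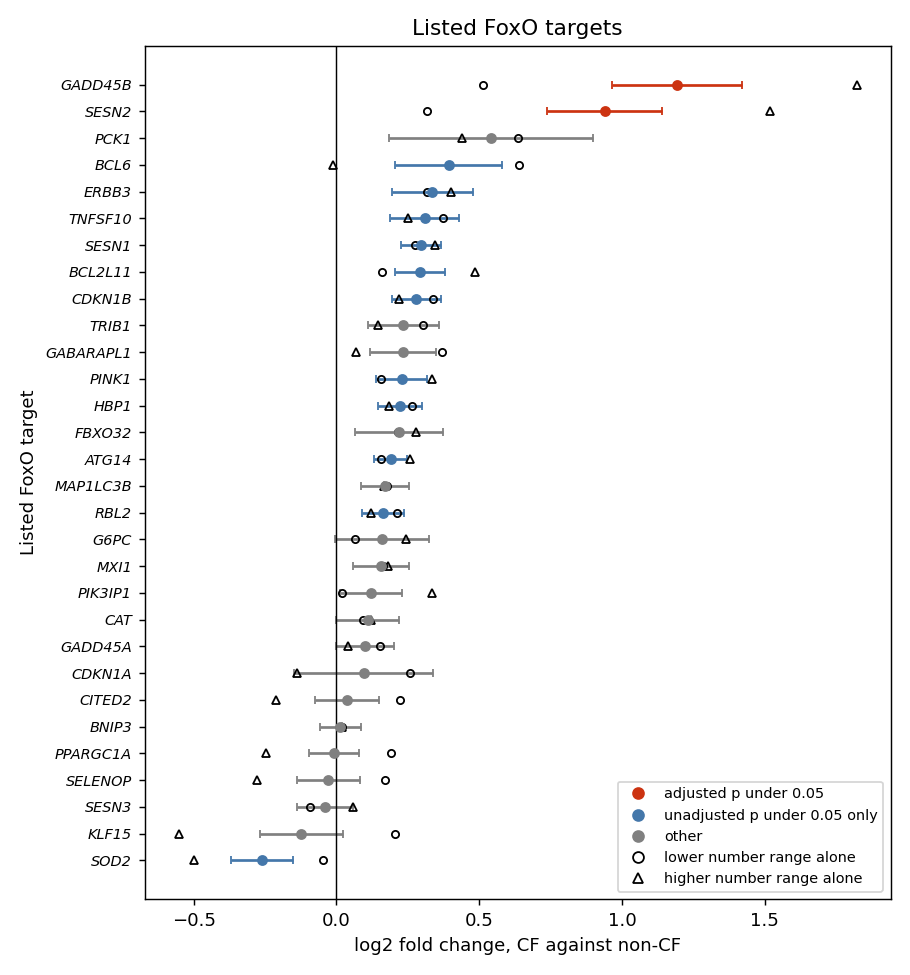
Log2 fold change of CF against non-CF (horizontal axis) for each listed FoxO target that passed the filter (vertical axis), with filled points and SE bars over all 23 libraries, open circles for the lower pig-number range alone and open triangles for the higher. GADD45B (1.19) and SESN2 (0.94) passed the test, and 25 of 30 points lie above 0.

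For CF against WT, 3 of the 192 listed genes rose and none fell by edgeR's test (1.56%, against 0.349% of all genes, 32 higher and 41 lower, or 36 and 103 with upper-quartile normalization), 2 of the 154 signalling genes and KLF9 of the adjacent responses: GADD45B (log2 fold change 1.35, adjusted p = 0.0389), KLF9, a transcription factor that glucocorticoids induce (0.49, adjusted p = 0.0287), and the autophagy gene MAP1LC3B (0.38, adjusted p = 0.0384). All 11 CF libraries lay above the WT median for each of these genes. MAP1LC3B was as high in HET (mean 52.7 CPM) as in CF (52.3 CPM), against 40.3 CPM in WT, with a log2 fold change of 0.39 for HET against WT (edgeR's adjusted p = 0.274, all 6 HET libraries above all 6 WT) and -0.01 for CF against HET. Each call depended on single libraries. GADD45B lost it on leaving out CF pig 7 (0.0586), 8 (0.0553) or 9 (0.0583), or pig 12 (0.0773), 16 (0.0836), 17 (0.105), 18 (0.107) or 22 (0.0569) of the WT group, KLF9 without WT pigs 12 (0.0697), 16 (0.068), 17 (0.0876) or 22 (0.0569), and MAP1LC3B without CF pig 2 (0.0654), 5 (0.0668), 7 (0.0682), 8 (0.0553) or 9 (0.0583) and likewise without WT pig 12 (0.0939), 16 (0.0836), 17 (0.0737), 18 (0.089) or 22 (0.0569). Without both CF pig 1 and WT pig 12 the adjusted p was 0.077 for GADD45B, 0.0758 for KLF9 and 0.102 for MAP1LC3B. Over all alternatives it ran from 0.00212 to 0.107 for GADD45B, from 6.83e-04 to 0.0876 for KLF9 and from 0.00245 to 0.102 for MAP1LC3B. In the other pairs edgeR called 0 of the 192, with an unadjusted p under 0.05 for 14.1% (CF against HET, 9.89% of all genes) and 5.21% (HET against WT, 7.99% of all genes), and DESeq2 called 1 in each.

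Upstream of the FoxO factors, none of the listed genes passed edgeR's test for CF against non-CF, and their counts at an unadjusted p under 0.05 lay near the 13.7% of all genes at that limit. Of 13 receptors and adaptors, 2 had an unadjusted p under 0.05, PTPN1, a phosphatase that acts on the insulin receptor (log2 fold change 0.23, adjusted p = 0.144), and the adaptor GAB1 (0.22, adjusted p = 0.243). IRS1, the other main adaptor of the insulin receptor, had 0.07 (edgeR's adjusted p = 0.873). Of 30 genes of PI3K, AKT and mTOR, 3 did so, among them RICTOR, a subunit of the mTOR complex that phosphorylates AKT (0.24, adjusted p = 0.0593, above the non-CF median in 11 of 11), and the catalytic subunit PIK3CD (-0.30, adjusted p = 0.13). RICTOR passed with DESeq2 (0.0114), with the number range as a term (0.048) and without CF pig 4 (0.0465), HET pig 15 (0.0467) or HET pig 19 (0.0412), over a span of 0.0114 to 0.455. Of 19 regulators of FoxO factors, 3 did so, PRMT1, YWHAB and SIRT1, with log2 fold changes of -0.24, -0.17 and 0.12.

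PAPPA2, a protease that frees IGFs from their binding proteins, had 48.5, 67.5 and 85.1 CPM in WT (lowest, median and highest), 24.6, 55.7 and 90.4 in HET and 15, 25.8 and 63.1 in CF. Every CF library lay below the non-CF median of 65.2 CPM, a position held by 1.59% of all genes, though the groups overlapped. PAPPA2 had a log2 fold change of -0.94 (adjusted p = 0.0531 by edgeR, SE 0.22, 0.00939 to 0.144 over the alternatives), with -1.25 in the lower number range and -0.68 in the higher. It passed with DESeq2 (0.00939), with upper-quartile normalization (0.0456), with the number range as a term (0.0253) and when CF pig 4 (0.04), 8 (0.0321) or 10 (0.0405) was left out, as when HET pig 13 (0.0259) or 15 (0.0346) was. The other IGF binding and protease genes, 11 that passed the filter, included IGFALS (0.38, edgeR's adjusted p = 0.283) and STC2 (0.31, adjusted p = 0.38). IGFALS had 0.001 in the lower number range and 0.79 in the higher, and STC2 0.07 and 0.65. Neither difference between the ranges passed (edgeR's adjusted p = 0.315 for IGFALS and 0.535 for STC2). IGFBP1, a FoxO target made in the liver, stayed under the filter with at most 24 counts in a library.

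Genes next to KLHL24, PDK4, TXNIP and CCNG2 in function were listed as well, and 0 passed edgeR's test for CF against non-CF, while 13.7% of all genes had an unadjusted p under 0.05 and 7.35% were higher at that limit. Of 11 genes of CUL3 ligases, the distal tubule adaptor KLHL3 alone had an unadjusted p under 0.05 (log2 fold change 0.31, adjusted p = 0.175). KLHL3 had 0.03 in the lower number range and 0.63 in the higher (adjusted p = 0.0236 there), a difference that did not pass (edgeR's unadjusted p = 0.00228, adjusted p = 0.203). Of 13 genes around pyruvate dehydrogenase, 2 did so, the subunit DLAT (-0.21, adjusted p = 0.281) and PDPR (0.16, adjusted p = 0.29). Among 11 genes of the TXNIP family and of glucose sensing, 4 did so and were higher, with ARRDC3 (0.26, adjusted p = 0.0939) and ARRDC4 (0.40, adjusted p = 0.126), relatives of TXNIP, the closest to passing. The list went both ways, with 6 of the 11 negative and a median log2 fold change of -0.00. Of 11 genes of cyclin G and cell cycle exit, CDK2 alone did so (-0.28, adjusted p = 0.126).

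Promoters of the 10 genes, 250 bases before to 50 after the annotated gene start in Sscrofa11.1, were searched on both strands for GTAAACA, the letters FoxO factors are known to bind, and for CAAAACA, a weaker form. GTAAACA was found in the promoters of FOXO3, INSR and TXNIP, 3 of the 10, and in 2.80% of 27250 promoters (762). CAAAACA was found in that of KLHL24 alone, and in 5.26% of promoters (1432). Stretches with GTAAACA are shown because they hold these letters, with capitals for the motif, which INSR holds as TGTTTAC, its form on the other strand. All are plus-strand sequence of the RefSeq genome, FOXO3 at chr1:74626464-74626530, INSR at chr2:71797169-71797208 and TXNIP at chr4:99348422-99348488.
FOXO3: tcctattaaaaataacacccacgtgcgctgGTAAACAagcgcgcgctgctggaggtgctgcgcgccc
INSR: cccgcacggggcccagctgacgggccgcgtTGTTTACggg
TXNIP: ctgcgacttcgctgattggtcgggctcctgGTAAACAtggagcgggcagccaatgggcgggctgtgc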

How the data were processed

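Kidney cortex RNA of 23 pigs was read from the estimated counts (expected counts per transcript) and TPM values that the authors deposited, made with kallisto per the submitters' processing notes. Values of 77689 transcripts were added up by symbol, which gave 26687 genes, and rounded, since 63.0% of transcript values were not whole. All 26687 gene IDs matched the annotation of Sscrofa11.1. CPM, fold changes and tests came from edgeR 4.0.16 on R 4.3.3 (TMM normalization, filterByExpr, quasi-likelihood test, 2-sided, Benjamini-Hochberg adjustment over 20921 genes, limit 0.05, prior count 2 for log2 CPM). A fit of 3 groups gave the pairwise comparisons, and a term for the pig-number range and its interaction with CF gave the comparisons between ranges. Relations across pigs used permutation tests, 2-sided, with 100000 resamples, in Python 3.11.15 with numpy 2.4.6, pandas 2.3.3 and scipy 1.17.1; pysam 0.24.0 read the sequence and matplotlib 3.10.9 drew the figures. A pseudocount of 1 was added to TPM before logs. Where a gene had no count, up to 3 counts remain possible, which covers counting error only.

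Named are the 10 genes, in each list those past the limit in any comparison and otherwise up to 3 with the smallest p, the 3 genes nearest to each of the 10, the most abundant gene of each marker list, and FOXO4, FOXO6, INS, IGF2 and IRS1. Some genes that this would name are not reported here. Lists covered ligands, receptors and adaptors, PI3K and mTOR, IGF binding proteins, FoxO factors, regulators and targets, CUL3 ligases, pyruvate dehydrogenase, the TXNIP family, cyclin G, glucocorticoid response, PPARA and fasting, immediate early and hypoxia genes, and cell type markers. Of 285 listed symbols 9 were absent from the annotation. The 10 genes and the lists were chosen with earlier results of these data known. Alternatives were DESeq2 1.42.0, upper-quartile and median-of-ratios normalization, 2 further filters, the number range as a term, each range alone, the Y-linked gene EIF1AY as a covariate, an exact Mann-Whitney test, each library left out in turn and, chosen after seeing the data, all libraries but CF pig 1 and WT pig 12, which held the most FOS. The edgeR fits, DESeq2 for CF against non-CF and the Mann-Whitney test were tried on simulated data. The permutation tests were not. Reads and protein sequences were not used here.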

Additional observations from a re-analysis of the deposited data

Results flagged for a closer look

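PDK4 did not pass the test of a difference between the ranges of pig number. It is singled out because all its CF libraries lay above the non-CF median in the lower range and below it in the higher. Its log2 fold change of CF against non-CF was 0.20 in the lower range and -0.67 in the higher, a difference of -0.87 (edgeR's interaction test, unadjusted p = 0.00852, adjusted p = 0.301), and 10.1% of all genes had an unadjusted p under 0.05 in that test. In the lower range all 6 CF libraries lay above the non-CF median, and in the higher range all 5 lay below every non-CF library. IGF1 also had opposite signs, -0.08 in the lower range and 0.32 in the higher (edgeR's interaction test, unadjusted p = 0.223, adjusted p = 0.713). What the ranges differ in besides pig number was not tested. No single WT or HET library passed Dixon's 95% critical value in its group for any of the 10 genes, the highest ratio being 0.577 (IGF1R, HET pig 15). That ratio misses a pair: for IGF1, WT pigs 12 (8.15 CPM) and 17 (7.61 CPM) stood apart from the other WT pigs (2.99 to 3.53 CPM).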

How the results depend on the processing

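Counts of genes called by edgeR moved with the processing, and the cause was not tested except where fewer genes or libraries were used by construction. For CF against non-CF (73 genes), DESeq2 called 488, the pig-number range as a term 148, EIF1AY as a covariate 45, the exact Mann-Whitney test 46 (of 20858 genes, 63 with ties left out), the lower range alone 0 (1958 at an unadjusted p under 0.05) and the higher alone 473, and leaving out each library in turn gave 17 (HET pig 21) to 203 (CF pig 4). For CF against WT (73), DESeq2 called 576, upper-quartile normalization 139, the range as a term 186, the libraries without CF pig 1 and WT pig 12, an alternative chosen after seeing the data, 21, and leaving out each library gave 20 to 203. For CF against HET (0), DESeq2 called 65, median-of-ratios normalization 4, upper-quartile 4, every gene with any count 1, the range as a term 5, and leaving out each library gave 0 to 3. For HET against WT (1), DESeq2 called 33, and leaving out each library gave 1 to 4. Genes whose CF effect differed between the ranges (4) numbered 1 to 91 (without CF pig 1) when libraries were left out in turn. Of the genes other than KLHL24 (1 called), 0 were called without the filter on low counts, without CF pig 1 and WT pig 12, with EIF1AY, in the lower range alone and by the Mann-Whitney test, 2 (INSR and PDK4) in the higher range alone, and 0 to 1 when libraries were left out in turn. Of the 192 genes of the pathway and adjacent lists (2 called), DESeq2 called 9, upper-quartile normalization 4, the range as a term 7, the libraries without CF pig 1 and WT pig 12 called 1, the lower range alone 0, the higher alone 9 and the Mann-Whitney test 0, and leaving out each library gave 0 to 7. The log2 fold changes of FOXO1, FOXO3, IRS2, INSR, IGF1R, CCNG2 and TXNIP kept their direction under every alternative. With libraries left out in turn those of FOXO3 ran from 0.14 to 0.26, IRS2 from 0.12 to 0.27, INSR from 0.26 to 0.38, IGF1R from 0.08 to 0.19, CCNG2 from 0.15 to 0.21, TXNIP from 0.28 to 0.43 and PDK4 from -0.25 to -0.08, the lowest of FOXO3, IRS2, INSR and IGF1R without CF pig 1. For KLHL24 the span over all alternatives was 0.48 to 0.55. Its direction follows from its selection on higher CF values and is given as a description. IGF1 changed sign in the lower range alone (-0.079), on the ratio of mean TPM (-0.032) and ran between -0.032 and 0.185 with libraries left out, PDK4 in the lower range alone (0.20), FOXO6 in the higher alone (0.21), and INS in the higher alone (-0.031), running between -0.014 and 0.250 with libraries left out. The weak relations of KLHL24 with PDK4 (0.186 with the range also subtracted, 0.212 on TPM) and TXNIP (0.127 and 0.192) changed sign, those with FOXO1 (0.638) and INSR (0.542) passed on TPM, and r with CCNG2 passed in each case (0.703 and 0.704). The difference in INSR exon share lay between 5.97 and 8.01 points with libraries left out. No paired analysis was possible because the pig numbers are not shared between genotypes. Low counts limit what can be said of IGF1, FOXO6 and INS.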

Other observations

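Beyond insulin signalling, 11 genes known to respond to glucocorticoids held 7 with an unadjusted p under 0.05 for CF against non-CF, all higher, where 7.35% of all genes were higher at that limit, and a median log2 fold change of 0.29 against -0.00 over all genes, though 0 passed edgeR's test. KLF9 came closest (0.37, edgeR's adjusted p = 0.0508, 0.00715 to 0.291 over the alternatives, 10 of 11 CF libraries above the non-CF median). It passed with DESeq2 (0.00715), with median-of-ratios (0.0492) and upper-quartile normalization (0.0413), with the number range as a term (0.0405), with EIF1AY as a covariate (0.0455) and without any of CF pigs 2 (0.0385), 3 (0.0299) and 4 (0.04) or HET pigs 13 (0.0346), 15 (0.045) and 19 (0.0451), where KLF9 had log2 fold changes between 0.35 and 0.40. ERRFI1, an inhibitor of the EGF receptor, had 0.61 (adjusted p = 0.0986) and lay above the non-CF median in all 11 CF libraries. HSD11B2, which inactivates cortisol in the distal nephron, had 0.26 (adjusted p = 0.216). It had 0.03 in the lower number range and 0.51 in the higher (edgeR's adjusted p = 0.0118 there). That difference did not pass (edgeR's unadjusted p = 0.00741, adjusted p = 0.289).

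Of 12 genes of PPARA and fasting, 0 passed edgeR's test and 2 had an unadjusted p under 0.05, CPT1B, which admits fatty acids into mitochondria (log2 fold change -0.42, adjusted p = 0.0567, below the non-CF median in all CF libraries), and UCP3 (1.73, adjusted p = 0.25). A position below that median in all CF libraries held for 1.59% of all genes. CPT1B had -0.215 in the lower number range and -0.68 in the higher (edgeR's adjusted p = 0.0124 there). That difference did not pass (edgeR's unadjusted p = 0.0167, adjusted p = 0.363). All 7 immediate early genes that passed the filter had positive values, led by JUN (1.10, edgeR's adjusted p = 0.237), but CF pig 1 was far above the rest, with JUN at 338 CPM against 20.3 to 38.5 CPM in the other CF libraries. In the higher number range FOS (-1.97), FOSB (-2.46) and EGR1 (-0.60) had negative log2 fold changes, where HET pig 20 held 61.8 CPM of FOS and the other non-CF libraries of that range 2.61 to 4.23 CPM, against 2.53 to 5.25 CPM in CF. Of 8 hypoxia genes, LDHA alone had an unadjusted p under 0.05 (-0.44, edgeR's adjusted p = 0.307). Erythroid markers summed to between 195 and 1040 TPM, nearly all of it HBB, and nephron progenitor markers, MEOX1 leading, to between 5.81 and 13.8 TPM. Endothelial markers (PECAM1 leading) summed to between 130 and 200 TPM, stroma and smooth muscle (COL3A1) to between 495 and 1210, and adipocyte markers (FABP4) to between 7.61 and 60.5 TPM.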
